A study of Mus musculus with 236 samples.

Results

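Zfp608, Pdzrn3 and Ptprt were low or near 0 in mouse embryonic stem cells at day 0.5 of differentiation and abundant at day 2.5. So was the reading of Gm49685, which could not be separated from that of the cadherin gene Cdh12. The members are 4 of the 39300 genes in the deposited expression table. They were chosen from it by name because their change between the days had been seen to be large. The values that chose them are therefore given as a description with no test. HiRES, which reads chromatin contacts and RNA from the same cell, was used on a female line of mouse embryonic stem cells that was derived from blastocysts with a C57BL/6J mother and a CAST/EiJ father. The cells were grown on gelatin with serum, LIF and 2i, which is a GSK3 inhibitor together with a MEK inhibitor. 2i and LIF were then withdrawn and the cells were plated on fibronectin in serum medium, and both days count from that step. The expression table held 406 cells, of which 49.5% were from day 0.5 and 50.5% from day 2.5. No separate cultures were named for the libraries, so each day was taken as 1 sample, and all values come from 1 cell line.

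On withdrawal of 2i and LIF, stem cells leave the naive state, in which Esrrb and Zfp42 are expressed, and pass through a formative state marked by Fgf5, Otx2 and Dnmt3b before any lineage is chosen. Zfp608 encodes a zinc finger protein related to Zfp609, a partner of the cohesin loader and the Integrator complex. Pdzrn3 encodes a ubiquitin ligase with a RING finger and PDZ domains, known for its part in Wnt planar polarity signalling. Ptprt encodes a receptor tyrosine phosphatase whose extracellular MAM domain takes part in adhesion between cells. Gm49685 is a predicted mouse gene with no described function.

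In the GRCm38.p6 RefSeq gene table, Pdzrn3 spans 228.3 kb of chromosome 6, from 101149607 to 101377897, and Ptprt spans 1139 kb of chromosome 2, from 161521988 to 162661147. The 250 bases upstream of the gene start are shown for Pdzrn3 and Ptprt, from the RefSeq promoter table of this build, since both genes went from few cells to most cells. Of the 4 members, 2 had a window in that table. CpG dinucleotides are in capitals. The windows lie at chr6:101377898-101378147 and chr2:162661148-162661397, and are written 5′ to 3′ on the minus strand, which is the strand of both genes.
Pdzrn3: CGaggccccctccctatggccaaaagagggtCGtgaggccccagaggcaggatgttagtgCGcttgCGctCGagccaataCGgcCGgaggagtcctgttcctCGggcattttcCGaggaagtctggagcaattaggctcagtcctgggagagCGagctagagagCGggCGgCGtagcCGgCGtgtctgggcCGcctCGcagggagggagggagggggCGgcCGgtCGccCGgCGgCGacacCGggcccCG
Ptprt: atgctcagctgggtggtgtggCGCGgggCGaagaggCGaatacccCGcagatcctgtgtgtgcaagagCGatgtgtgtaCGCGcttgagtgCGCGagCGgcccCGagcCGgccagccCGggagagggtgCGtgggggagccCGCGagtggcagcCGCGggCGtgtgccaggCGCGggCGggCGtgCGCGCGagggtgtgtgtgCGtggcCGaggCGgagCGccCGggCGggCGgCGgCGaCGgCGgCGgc
The Pdzrn3 window held 25 CpG and the Ptprt window 39, where the median of 32851 windows of the same length was 6 and the upper quartile 16. Their GC content was 69.2% and 76.4% against a median of 52.4%. Both windows thus lay among the CpG-rich ones, at the 89.3 and 98.4 percentiles of CpG number. On both strands and with overlaps allowed, CCAAT was found 1 time in the Pdzrn3 window and is held by 33.8% of all windows. TATAAA (12.4% of windows), ATGCAAAT (1.601%), GGATTA (6.25%) and CACGTG (6.02%) were in neither window.

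The expression table counts unique molecular identifiers (UMIs), which stand for captured RNA molecules, and allows fractions of a UMI. Day 0.5 cells held 501 to 23213 UMIs (median 13670) and day 2.5 cells 529 to 29275 (median 15796), with 7 cells under 5000 UMIs on each day. Exon UMIs made up 26.3% and 24.2% of the total. The cell metadata divide the cells into 3 sets of unstated meaning, called batches here. All 80 cells of batch 1 were from day 0.5 and all 83 cells of batch 3 from day 2.5, and batch 2 held the remaining 60.2% of day 0.5 and 59.5% of day 2.5 cells. Cell names carry a letter, A or B, of unstated meaning, and no cell name was shared between libraries. Genes are called higher or lower here, with no test, when CPM differed at least 1.5 times between the days and letter A and letter B cells went the same way. CPM is the summed UMIs of a gene per 1000000 UMIs of the same cells, and a gene is measured with at least 20 UMIs over both days. Of 13777 measured genes 19.4% were higher and 20.4% lower at day 2.5. All 13 measured genes of a naive marker list were lower, and of 15 formative genes 10 were higher and 2 lower. Some defining markers of other lineages were near 0 on both days, with the fibroblast collagen gene Col1a1 in 1 and 0 cells, Cdx2 of trophectoderm in 0 and 1 cells and T of the primitive streak in 1 and 2 cells. Others were at low levels like those of the members at day 0.5, namely Gata4 of primitive endoderm (12.8 and 13.5 CPM, 13.4% and 11.7% of cells), Gata3 of trophectoderm (12.6 and 4.08 CPM, 10.4% and 4.39%) and Pax6 of neuroectoderm (6.02 and 2.82 CPM, 6.47% and 2.93%). Their whole lists summed to 127.4 and 26.4 CPM for trophectoderm and 459 and 97.5 for fibroblasts. The sums were 33.1 and 64.03 for the primitive streak, 142.7 and 356 for neuroectoderm and 139.1 and 299 for primitive endoderm. Most measured genes of the last 3 lists were higher, with 1 lower in each. These were 2 of 3 for the streak, 3 of 4 for neuroectoderm and 4 of 6 for primitive endoderm. They included Zfp521 (12.05 to 131.5 CPM) and Lamb1 (24.3 to 160.5 CPM). All 3 measured trophectoderm genes were lower. The fibroblast sum was mostly Fn1 (448.6 and 88.98 CPM), found in 90.5% of day 0.5 cells. The part of such cells in the levels below was not tested.

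All 4 genes were detected in most day 2.5 cells, Gm49685 only at full depth and as a reading not separable from that of Cdh12. At day 0.5 UMIs of 3 of the 4 were found in a minority of cells. Levels below are CPM with 95% exact Poisson intervals. A share of cells counts cells with at least 1 UMI, with a Clopper-Pearson interval. All intervals cover counting error only. All 4 members were among the 19.4% of measured genes called higher. A ratio of at least 20, which all 4 members reached, was found for 0.443% of these genes, and a rise in the share of cells of at least 50 points, also reached by all 4, for 0.486%. As the day contrast chose the members, nothing is read from these counts.

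**Figure D1:**
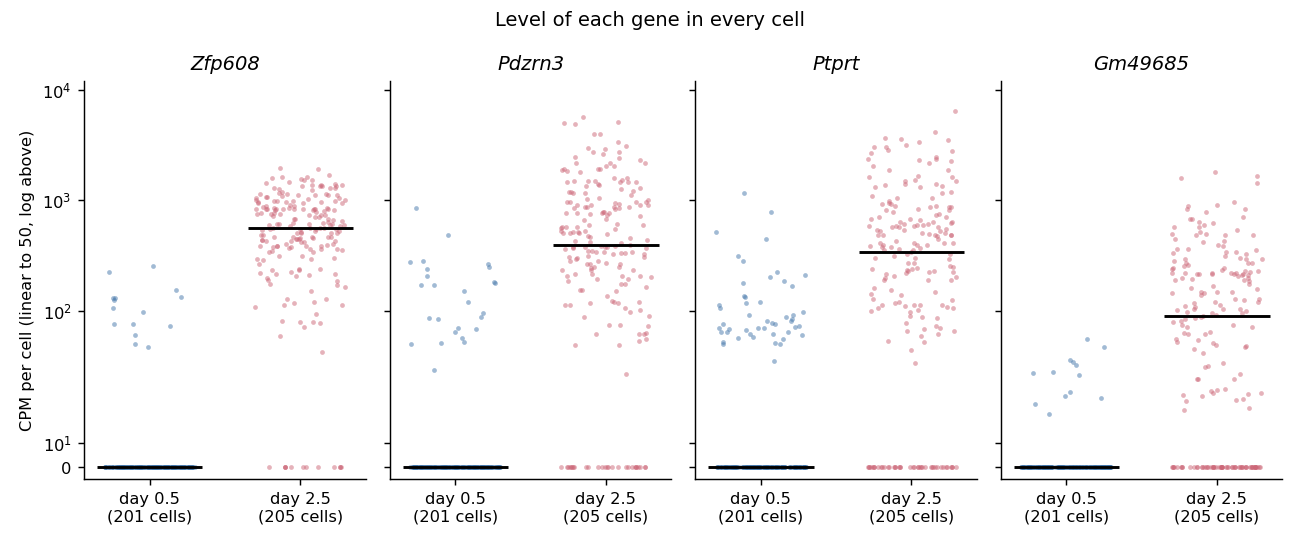
Level of the 4 genes in each of the 406 cells, by day, as CPM per cell on an axis that is linear to 50 and logarithmic above; each point is a cell and the black bar is the median. The median was 0 for every gene at day 0.5, while at day 2.5 Zfp608 had the fewest cells at 0 (12) and Gm49685 the most (60).

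Zfp608 was the gene found in the most day 2.5 cells. It lies on chromosome 18 from 54888045 to 54992591, a length of 104.5 kb. At day 0.5 it had 0 UMIs in 92.5% of cells, and the highest cell had 3. At day 2.5 the lowest cell had 0, the median cell 8 and the highest 39 UMIs. The 2 days overlapped only at these low values, with 12 day 2.5 cells at 0. At least 1 UMI was found in 7.46% (4.24 to 12.01) of day 0.5 cells, 15 in number, and in 94.1% (89.998 to 96.9) of day 2.5 cells, a difference of 86.7 points (80.6 to 90.5, Newcombe interval). Its summed level went from 8.66 CPM (5.49 to 12.99) to 653 CPM (625 to 682), a ratio of 75.4 (50.1 to 119.3, exact conditional interval). Per kb of gene length it had the highest level of the 3 genes with a position, at 6.25 CPM per kb on day 2.5.

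Pdzrn3 was present at day 0.5 in more cells than Zfp608 and reached a wider range at day 2.5. At day 0.5 it was at 0 in 87.1% of cells and reached 8 UMIs in the highest cell. At day 2.5 the lowest, median and highest cells had 0, 6.5 and 93 UMIs. High cells at day 2.5 thus lay far above the day 0.5 range, but 27 cells were still at 0. The share of cells went from 12.4% (8.21 to 17.8) to 86.8% (81.4 to 91.1). Its level went from 22.8 CPM (17.4 to 29.3) to 759 CPM (729 to 790), a ratio of 33.3 (25.8 to 43.8), and its day 2.5 level was 3.33 CPM per kb.

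Ptprt was the most widely detected of the 4 at day 0.5. It had a UMI in 49 day 0.5 cells, 24.4% (18.6 to 30.9), and in 80% (73.9 to 85.2) of day 2.5 cells. The median cell had 0 and the highest 7 UMIs at day 0.5. At day 2.5 the median cell had 5 UMIs, 41 cells were at 0 and the highest cell with at least 5000 UMIs had 6390 CPM. The ranges therefore overlapped over the low cells of day 2.5. Its level went from 32.003 CPM (25.6 to 39.6) to 697 CPM (668 to 727), a ratio of 21.8 (17.5 to 27.4). Over its length of 1139 kb this was 0.612 CPM per kb at day 2.5, the lowest of the 3 genes with a position. With every cell thinned to 5000 UMIs, which leaves out the 7 shallower cells of each day, the day 0.5 shares came closer together, at 5.15% for Zfp608, 7.73% for Pdzrn3 and 8.25% for Ptprt, while the day 2.5 shares kept their order at 86.9%, 73.2% and 67.2%. Gm49685 was then in 0% and 41.9% of cells, so it was no longer found in most day 2.5 cells.

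Gm49685 had no whole UMI of its own at day 0.5 (no position was used for it), and its reading cannot be separated from that of Cdh12, a cadherin gene on chromosome 15. At day 0.5, 13 cells held a value above 0 and each of these was 0.5 UMI. At day 2.5 the lowest, median and highest cells had 0, 1.5 and 37 UMIs. The share of cells with at least 1 UMI was 0 at day 0.5, with an upper limit of 1.49% from 3 counts or 1.82% from the Clopper-Pearson interval, and 59.02% (51.96 to 65.8) at day 2.5. The level went from 2.45 CPM (0.943 to 5.17) to 206.7 CPM (191.2 to 223.1), with a ratio of 84.5 (39.7 to 220.02).

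Of the cells with a fractional Gm49685 value, 100% also had a fractional Cdh12 value, against 1 of the 304 cells without. In no cell was the value of Gm49685 greater than that of Cdh12, and where Gm49685 was above 0 both were equal in 8 of 13 cells at day 0.5 and in 71 cells at day 2.5. The table thus divides some UMIs between the 2 names. As Gm49685 never exceeded Cdh12, the values do not show that any UMI belongs to Gm49685 alone, and that number is uncertain. Added together, Gm49685 and Cdh12 went from 23.5 CPM (18.1 to 30.1) to 516 CPM (491 to 542), and from 22.4% to 80% of cells. On this sum the signal was in 45 early cells, but Gm49685 was above 0 in only 13 of them and made up 10.4% of the summed UMIs. At day 2.5 it made up 40.1%. The early sum was thus mostly Cdh12, at a share of cells close to that of Ptprt. That the 13 cells do not count as positive for Gm49685 rests on the division of UMIs and on the minimum of 1 UMI.

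**Figure D2:**
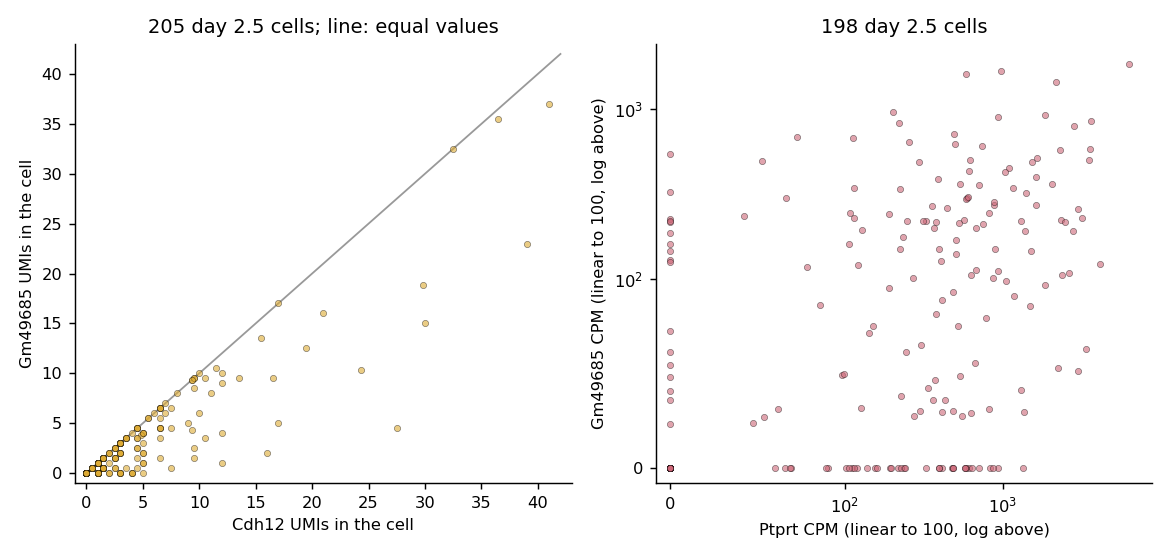
Left, UMIs of Gm49685 against UMIs of Cdh12 in each day 2.5 cell, with a line of equal values; right, CPM of Gm49685 against CPM of Ptprt in the day 2.5 cells with at least 5000 UMIs, on axes linear to 100 and logarithmic above. No cell lies above the line on the left, and on the right cells high for Ptprt tended to be high for Gm49685 (rho 0.40).

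The early cells held few UMIs of the members and seldom held those of 2 members. At day 0.5, 62.2% of cells had none, 64 cells had 1 member, 11 had 2 and 1 had 3, so that 76 cells (37.8%) had at least 1 and 12 (5.97%) had at least 2. The 12 cells came from 11 libraries. Among Zfp608-positive cells, 9 of 15 had exactly 1 UMI of the gene, as did 11 of 25 Pdzrn3-positive and 35 of 49 Ptprt-positive cells. The highest Pdzrn3 cell, with 8 UMIs, held 13.2% of all its day 0.5 UMIs.

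Overlap between the early sets was about that in the other cells. Pdzrn3 was found in 2 of 15 Zfp608-positive cells, 13.3% (1.66 to 40.5), and in 12.4% (8.003 to 17.97) of all others. Ptprt was found in 5 of the 15 Zfp608-positive cells, 33.3% (11.8 to 61.6), and in 23.7% (17.7 to 30.4) of the others. It was found in 7 of 25 Pdzrn3-positive cells, 28% (12.1 to 49.4), and in 23.9% (17.8 to 30.9) of the rest. The intervals overlapped for all 3 pairs, and with so few cells a difference of the size seen for Zfp608 and Ptprt was not detectable. In batch 1, 38 cells (47.5%) were positive for a member, and in batch 2 38 cells (31.4%), with median depths of 15037 and 11636 UMIs. The part of depth in that difference was not tested.

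**Figure D3:**
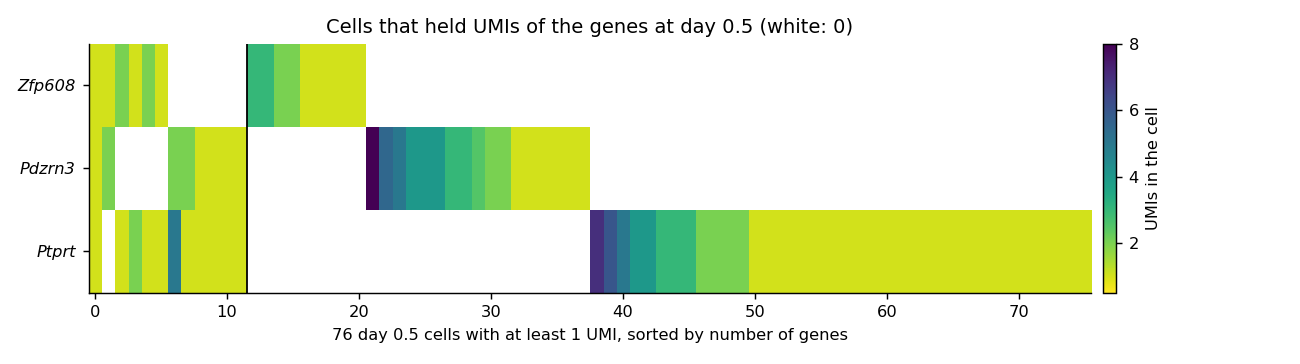
UMIs of Zfp608, Pdzrn3 and Ptprt (rows) in the 76 day 0.5 cells with at least 1 UMI of any of them (columns), coloured by UMIs with white for 0; cells left of the black line, 12 in all, had 2 or more genes. Most positive cells belong to 1 gene only, and Ptprt makes up the largest set.

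The positive day 0.5 cells were not apart from the rest in the summed naive or formative markers. Cells with at least 1 member had 1799 CPM (1720 to 1882) of the naive list and 2181 CPM (2093 to 2272) of the formative list, against 1808 (1743 to 1875) and 2073 (2003 to 2145) in cells with none. Fgf5, a formative growth factor gene, had 1 UMI in the 76 positive cells and 7 in the others. Xist had 36.2 CPM (25.7 to 49.6) and 44.9 CPM (35.1 to 56.6). Median depths were 13990 and 12889 UMIs.

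Zfp42, which encodes the naive-state factor REX1, was lower in the Zfp608-positive cells. They had 35 Zfp42 UMIs over 15 cells, 166.7 CPM (116.1 to 231.9), against 348 CPM (325 to 372) in all others, and the median cell had 2 and 4 Zfp42 UMIs. Within batch 1 the levels were 181.96 CPM (117.8 to 269) and 356 CPM (321 to 393), and within batch 2 137.9 CPM (66.1 to 254) and 341 CPM (311 to 374). The ranges of single cells overlapped, from 0 to 8 and from 0 to 15 UMIs. The whole naive list, of which Zfp42 is a part, had 1629 CPM (1461 to 1811) in Zfp608-positive cells and 1820 CPM (1767 to 1874) in the others, with overlapping intervals. Esrrb, of the same network, had 291 CPM (222.3 to 373) and 343 CPM (320 to 367), with overlapping intervals. Pdzrn3-positive and Ptprt-positive cells had Zfp42 levels of 330 and 329 CPM, close to the 334 and 335 CPM of the cells without these genes. This comparison was made after the values were seen and rests on 15 cells of 1 sample.

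The trophectoderm list also differed, at 169.3 CPM (145.5 to 195.9) in cells with at least 1 member and 99.5 CPM (84.6 to 116.3) in cells with none. Of its 10 genes, Cdx2, Krt8, Krt18, Hand1 and Ascl2 were at 0 in both sets, and Tead4, a transcription factor that stem cells also express, gave 142.97 CPM (121.1 to 167.6) and 84.8 CPM (71.1 to 100.3). Within batch 1 the list had 174.8 and 101.6 CPM, and within batch 2 162.7 and 98.1 CPM. In the 12 cells with at least 2 members it had 119.8 CPM (73.2 to 185.1), which overlapped both sets. Pdzrn3-positive cells had 180.5 CPM (139.3 to 230.1) against 119.1 CPM (105.4 to 134.1) in the others. Intervals overlapped for cells with and without Zfp608 (152.4 and 125.3 CPM) and Ptprt (158.8 and 116.7 CPM). The part of the list in the early UMIs of the members was not tested. A cell with 1 Zfp608 and 2 Ptprt UMIs held 16 of the 94 Sema6a UMIs of day 0.5, a gene whose ratio between the days was like that of Zfp608 (from 35.4 to 2709 CPM).

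At day 2.5, nearly all cells had some of the genes and 47.3% had all of them. Of the day 2.5 cells, 97 had all 4 members, 66 had 3, 30 had 2, 10 had 1 and 2 had none. The median depth was 16512 UMIs in the cells with all 4 and 11016 in those with 1. The 12 cells without Zfp608 had a median of 11955 UMIs, 3 of them were under 5000, and 8 were of the G1 class. Their Zfp42 level was 56.7 CPM (22.8 to 116.9) from 7 UMIs, against 17.3 CPM (12.96 to 22.6) in the cells with Zfp608. Esrrb had 16.2 and 12.2 CPM in the same sets, and Zfp42 was singled out after its values were seen.

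Within day 2.5, Zfp608 varied less between cells than the other 3 genes and about as much as a typical gene. In the cells with at least 5000 UMIs, 96.6% of the day, Zfp608 ran from 0 through a median of 590 CPM to 1949 CPM. Pdzrn3 ran from 0 through 418 to 5074 CPM and Ptprt from 0 through 369 to 6390 CPM. Gm49685 ran from 0 through 93.9 to 1822 CPM. The 20 highest cells held 25.8% of all Zfp608 UMIs, but 38.9% for Pdzrn3, 46.4% for Ptprt and 48.5% for Gm49685.

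The spread beyond counting noise was measured on cells thinned to 5000 UMIs, as the squared coefficient of variation (CV) left after the Poisson part is taken away. It was 0.300 for Zfp608, 1.47 for Pdzrn3, 2.02 for Ptprt and 2.25 for Gm49685. Over 2551 genes with a mean of at least 0.5 thinned UMIs the median was 0.355, with quartiles of 0.203 and 0.605. Zfp608 lay at the 42.02 percentile of these genes, and Pdzrn3, Ptprt and Gm49685 at the 94.9, 97.6 and 98.2 percentiles. Cdh12, which shares UMIs with Gm49685, had 1.26 at the 93.2 percentile, and the part of the division of UMIs in the Gm49685 value was not tested. The 2551 genes had a median mean of 0.970 thinned UMIs, so the percentiles are not matched for mean. Zfp608 was still more uneven than counting noise alone, with 13.1% of thinned cells at 0 where a Poisson distribution of its mean gives 4.17%, and a Fano factor (variance over mean) of 1.95 at the 83.7 percentile of these genes. Although the thinned means of Zfp608, Pdzrn3 and Ptprt were close (3.18, 3.84 and 3.30 UMIs), 26, 53 and 65 cells were at 0. Batch 2 and batch 3 alone gave 0.279 and 0.340 for Zfp608, 1.59 and 1.30 for Pdzrn3, and 2.29 and 1.72 for Ptprt, so the order was kept in each.

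**Figure D4:**
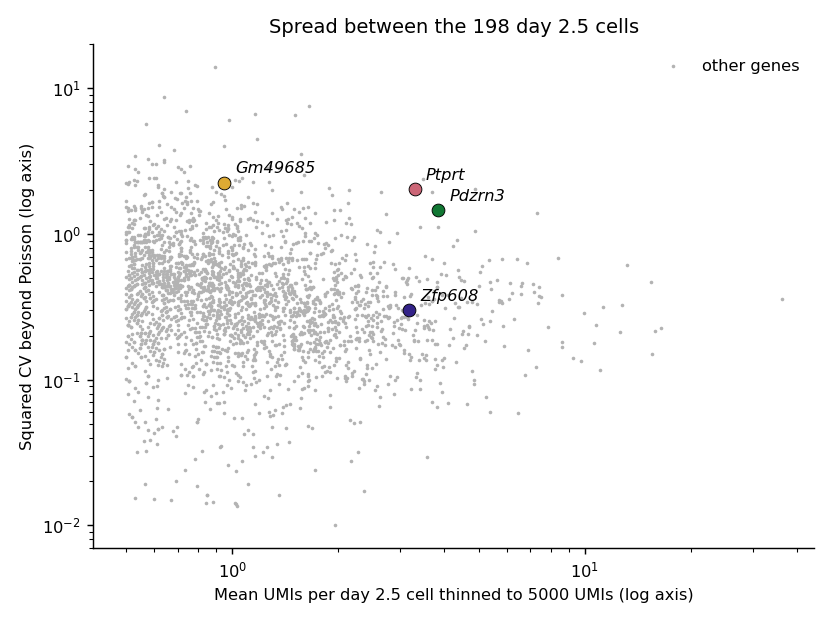
Squared CV beyond Poisson against mean UMIs per cell for genes in day 2.5 cells thinned to 5000 UMIs, both on log axes; grey points are single genes, of which 60 at or below 0.01 are not drawn. Zfp608 (0.300) lies within the cloud of genes of like mean, while Ptprt (2.02), Pdzrn3 (1.47) and Gm49685 (2.25) lie near its upper edge.

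Ptprt and Gm49685 tended to be high in the same day 2.5 cells, and the other pairs had weak correlations. Across the day 2.5 cells with at least 5000 UMIs, 96.6% of the day, Spearman's rho of CPM was 0.40 for Ptprt and Gm49685 (0.30 within batch 2, 0.53 within batch 3), and between -0.0078 and 0.12 for the other 5 pairs. Of these, Pdzrn3 and Ptprt had 0.018 within batch 2 and 0.22 within batch 3. These cells share libraries and depth, Ptprt and Gm49685 had rho of 0.18 and 0.16 with total UMIs. They had -0.22 and -0.21 with the S score of the authors and -0.26 and -0.06 with the exon share of UMIs. The part of these measures in the correlation was not tested, and weak values in such sparse counts are no finding. Of the 50 highest cells for each gene, 23 (46%) were shared by Ptprt and Gm49685 and 12 to 16 (24% to 32%) by the other pairs. Sets of this size share some cells without any relation, so nothing is read from the other pairs.

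The genes most like each member across day 2.5 cells were sought among 3656 genes with a mean of at least 1 UMI per cell. Ptprt had the closest ones, namely Ano3 (rho 0.56), which encodes a membrane protein of the anoctamin family, Dscaml1 (0.53), a cell adhesion gene, the scaffold gene Grip1 (0.49), the exocyst gene Exoc4 (0.49) and Rnf169 (0.45). Within single batches the 5 values lay between 0.40 and 0.57. In the order named, the 5 genes span 295, 326, 634, 725 and 61.1 kb, beside 1139 kb for Ptprt. The part of gene length in the likeness was not tested. For comparison, 5% of all 3656 genes had a rho with Ptprt above 0.19. Dscaml1 and Grip1 were themselves 12.9 and 9.79 times as abundant at day 2.5 as at day 0.5. The lowest values were those of Cdyl and Uchl3, both -0.30.

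Zfp608 and Pdzrn3 had no neighbours of that strength. For comparison, 5% of the 3656 genes had a rho above 0.14 with Zfp608, 0.15 with Pdzrn3 and 0.16 with Gm49685. The genes named are the extremes of that many genes, and no test was made of them. For Zfp608 the highest were the semaphorin gene Sema6a (0.30), the corepressor gene Tle4 (0.27), Foxp4 (0.25), Rps6ka2 (0.24) and Etv1 (0.24), and the lowest Lrp2 and Dpysl5 (both -0.25). For Pdzrn3 they were the calcium channel gene Ryr2 (0.33), Arhgap10 (0.30), Plekhg1 (0.29), Tcf4 (0.29) and Sh3d19 (0.29), and the lowest were Adam10 and Mphosph8 (both -0.28). Gm49685 was most like Cdh12 (0.86), with which it shares UMIs, then Ptprt, Ano3 (0.35), Adamtsl1 (0.34) and Ctnna2 (0.33), with Supt16 and Igf2bp2 lowest (both -0.27). Cdh12, Adamtsl1 and Ctnna2 are long genes too, at 1150, 915 and 1098 kb, and the part of length was not tested.

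The authors gave each cell a cell cycle class, and at day 2.5 Ptprt and Zfp608 levels differed between classes in both batches that hold day 2.5 cells. Ptprt was highest in the 18 G2 cells, at 1235 CPM (1125 to 1352), and stood at 516 CPM (475 to 559) in the 82 G1 cells. Their ratio was 2.39 (2.12 to 2.71), with 2.99 within batch 2, 2.00 within batch 3 and 1.90 without the highest G2 cell. Depth moved with this, at a median of 20054 UMIs in G2 and 13949 in G1 cells, and exon UMIs were 23.9% and 23.96%. The part of depth was not tested.

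Zfp608 had its lowest class level in the 15 Early-S cells, 360 CPM (289 to 443), and its highest in the 17 Late-S cells, 825 CPM (718 to 944). The ratio of these 2 classes was 2.29 (1.78 to 2.97), and 1.74 and 3.43 within batches 2 and 3. For Pdzrn3 the same ratio was 1.46 (1.21 to 1.77), with 0.887 within batch 2 and 3.13 within batch 3. It was 1.06 without the highest Late-S cell. The direction thus differed between the batches, and the pooled ratio rested largely on 1 cell. G2 over G1 was 1.02 for Pdzrn3, and for Gm49685 it was 2.58 within batch 2 and 0.765 within batch 3. Late-S over Early-S was 0.643 (0.517 to 0.799) for Ptprt, with 0.797 and 0.287 within batches 2 and 3. For Gm49685 it was 0.519 (0.342 to 0.777), with 0.390 and 0.784 within batches. Without the highest Early-S cell these ratios were 0.882 for Ptprt and 0.926 for Gm49685. Cdh12 had 0.42 (0.296 to 0.593), with 0.375 and 0.449 within batches.

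**Figure D5:**
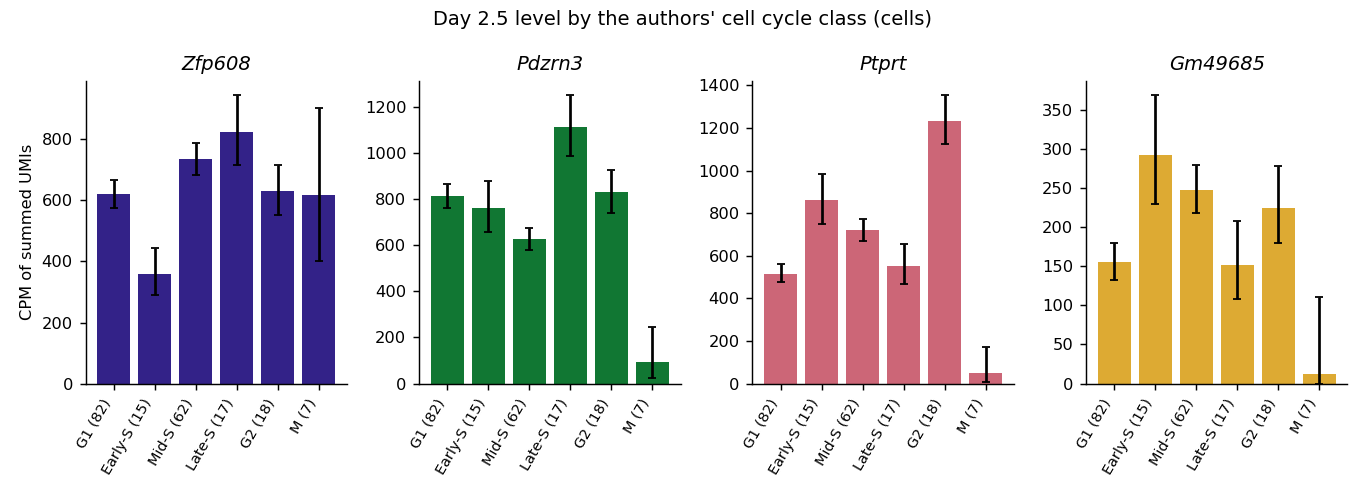
CPM of summed UMIs at day 2.5 in each cell cycle class given by the authors, with the number of cells in brackets and 95% exact Poisson intervals as bars; the 4 cells of class G0 are not drawn. The M class was low for Pdzrn3, Ptprt and Gm49685 but not for Zfp608 (617 CPM), and Ptprt was highest in G2 (1235 CPM).

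The 7 cells of the M class separated Zfp608 from the rest. Zfp608 was found in 6 of the 7, with 0, 4 and 11 UMIs in the lowest, median and highest cell, and 617 CPM (403 to 904). Pdzrn3 was found in 2 of them with 94.97 CPM (25.9 to 243) and Ptprt in 1 with 47.5 CPM (5.75 to 171.5). Gm49685 reached no whole UMI in any. M over all other classes gave ratios of 0.944 for Zfp608 (0.615 to 1.39), 0.124 for Pdzrn3 (0.0337 to 0.317) and 0.0673 for Ptprt (0.00814 to 0.243).

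Gene length moved with this ratio over all genes. Among 3640 genes with a mean of at least 1 UMI per cell outside the M class, the median ratio was 0.769. It was 1.63 for the 1224 genes under 50 kb, 0.656 for the 1773 genes from 50 to under 200 kb and 0.185 for the 558 genes of 200 kb or more, with quartiles of 0.0639 and 0.359 in the last. Pdzrn3 and Ptprt, both over 200 kb, lay within those quartiles, and Zfp608, of 104.5 kb, lay within those of its own class (0.306 to 1.18). The low values of the 2 long genes were thus shared with other long genes. The M cells were also shallow, with 533 to 11301 UMIs, a median of 4819 and 4 of 7 under 5000, and the part of depth was not tested.

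Cells that the authors kept in their X chromosome allele table and cells outside it also differed. Ptprt had 875 CPM (825 to 926) in the 83 day 2.5 cells outside and 572 CPM (538 to 607) in those inside, a ratio of 1.53 (1.41 to 1.66) that was 1.83 and 1.25 within batches 2 and 3. Pdzrn3 went the other way, at 633 and 849 CPM, a ratio of 0.746 (0.685 to 0.812), with 0.783 and 0.696 within batches. Zfp608 had 616 and 679 CPM, and its ratio of 0.907 was above 1 within batch 2 (1.08) and below it within batch 3 (0.703). Xist, the RNA that starts X inactivation, was at 83.1 CPM outside and 2490 CPM inside, and its part in these differences was not tested. Sorted by Xist alone, Ptprt in the 48 cells with under 1 Xist UMI over the 99 with 10 or more gave 1.37 (1.23 to 1.52), which was 1.99 within batch 2 and 0.826 within batch 3. The same ratio was 0.738 (0.662 to 0.822) for Pdzrn3, and 0.816 and 0.643 within batches 2 and 3. For Zfp608 it was 0.838 (0.977 and 0.666 within batches) and for Gm49685 1.38 (1.71 and 1.13 within batches).

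The pseudotime the authors computed covers only the 59.5% of day 2.5 cells in the allele table. Zfp608 had 738 CPM in the 31 latest and 584 CPM in the 31 earliest of these cells, a ratio of 1.26 that was 0.931 within batch 2 and 1.95 within batch 3. Pdzrn3 (1.08) and Ptprt (1.01) had ratios near 1, with Ptprt at 0.673 and 1.72 within batches. Gm49685 was lower in the latest cells, 109.9 against 213.998 CPM, a ratio of 0.514 (0.359 to 0.728) with 0.601 and 0.407 within batches. Except for Gm49685, no order along pseudotime inside day 2.5 was thus the same in both batches.

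Of the genes related to Zfp608, the paralogue Zfp609 was higher at day 2.5 and most Integrator genes were in neither class. Zfp609 went from 316 CPM (295 to 338) to 749 CPM (719 to 779). Of 17 measured genes in its list, which holds Zfp609, the cohesin loaders Nipbl and Mau2 and 14 Integrator genes, 1 was higher, 1 was lower (Ints6, 774 to 508 CPM) and the median log2 change was -0.14. Over all 13777 genes the median was -0.06, 19.4% were higher and 20.4% were lower. The list as a whole thus lay close to the median of all genes.

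The family of Pdzrn3 changed in different directions. Pdzrn4, its closest relative, went from 141.9 to 322 CPM but is in neither class because it was higher at day 2.5 in letter A cells (from 143.1 to 348 CPM) and not in letter B cells (from 134.1 to 105.5 CPM). Lnx1 was higher (from 2.26 to 13.3 CPM) and Lnx2 lower (from 77.9 to 40.2 CPM). Of 23 Wnt planar polarity genes, 18 were measured, 9 were higher and 1 was lower, with a median log2 change of 0.41, where 19.4% of all measured genes were higher, 20.4% lower and the median was -0.06. The receptor gene Ror1 went from 49.3 CPM (41.2 to 58.5) to 781 CPM (751 to 813), 15.8 times its day 0.5 level, and the coreceptor gene Ptk7 from 230.8 to 559 CPM. Ror2, which encodes a related receptor, had 531 and 587 CPM and was in neither class, as was the formin gene Daam1 at 201.6 and 198.5 CPM. Vangl1, a core planar polarity gene, was the lower one, at 75.7 and 26.4 CPM.

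Of the phosphatases with a MAM domain besides Ptprt, Ptprm was higher (from 66.45 to 129.8 CPM), as was Ptpru (from 15.1 to 27.3 CPM). Ptprk, the most abundant of them, was in neither class with 1203 and 1042 CPM. Among 16 measured receptor tyrosine phosphatases of other types, 3 were higher, 3 were lower and the median log2 change was 0.01. These shares were close to those of all measured genes, of which 19.4% were higher and 20.4% lower, with a median of -0.06. Of 8 partners and substrates, which include cadherins and catenins, 2 were higher and 4 lower with a median of -0.44. The lower ones included the N-cadherin gene Cdh2 (from 77.2 to 31.1 CPM) and the alpha-catenin gene Ctnna1 (from 603 to 334 CPM), while the E-cadherin gene Cdh1 was in neither class (355 and 459 CPM).

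The nearest measured genes on the chromosome are given for their own levels, since the members were chosen for large ratios between the days and a smaller ratio near them shows nothing. Many lie far away. On either side of Zfp608 the nearest genes with at least 20 UMIs were Csnk1g3 (932 kb away, from 154.7 to 255 CPM) and Gramd3 (1395 kb away, from 9.41 to 51.2 CPM), both higher. For Pdzrn3 they were Ppp4r2, 280 kb away and in neither class (from 112.01 to 121.5 CPM), and Cntn3, a neural adhesion gene 785 kb away, which was higher (from 32.4 to 77.5 CPM). For Ptprt they were the chromatin remodeller gene Chd6, 413 kb away and higher at 347 to 736 CPM, and the splicing factor gene Srsf6, 270 kb away and in neither class at 67.02 and 63.9 CPM. For Cdh12, which shares UMIs with Gm49685, they were the cadherin genes Cdh10, 1433 kb away and higher at 14.7 to 194.9 CPM, and Cdh18, 950 kb away and in neither class at 40.1 and 44.6 CPM. Of the measured genes that start within 500 kb of each member, none was called for Pdzrn3 (2 measured), 1 was higher and 2 were lower for Ptprt (5 measured), and none was measured for Zfp608. Over all measured genes 19.4% were higher and 20.4% lower, and these few genes show no pattern. The transcripts that overlap the members, Gm4221 at Zfp608, Gm26911 at Pdzrn3 and Ptprtos at Ptprt, had at most 8 UMIs on a day each, and whether counting used strand is not stated in the labels or file headers.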

How the data were processed

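HiRES libraries of 1 to 2 cells were grouped by the day in their titles. Values of the deposited expression table are expected counts of UMIs per gene and cell, with fractions in 11.1% of the values above 0 in the cells used here. The cell tables hold counts of gene UMIs, exon UMIs and contact pairs, per the file headers, and cell cycle scores and a monocle3 pseudotime score, per the file headers. Per the submitters' processing notes, GRCm38 was the build. Aligner, counter, strand use and cell filters remain not given in the sources used here. Of 236 libraries, 228 had cells in the expression table, and 1101 columns of that table that match no sample here were not used. Cell names carry a letter, A or B, of unstated meaning, and letter B cells, 42 from day 0.5 and 32 from day 2.5, were all of batch 2.

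UMIs were summed per day as deposited and scaled to CPM. Changes are log2((CPM day 2.5 + 5)/(CPM day 0.5 + 5)). For thinning alone, a fraction was rounded up with a probability equal to it. With 1 sample a day no test was made and no p-value is given. The limit given for a share of 0 is 3 counts of the total. Named genes are the 4 members, up to 4 genes with the most UMIs of each list (all of a list of at most 5), the 5 most and 2 least alike in rho, and the nearest neighbours. Some others were named after their values were seen: Vangl1, Cdh2, Cdh10, Cdh12, Cdh18, Zfp42, Tead4 and the marker genes. The members and lists were chosen with earlier results of these data known. Alternatives covered the minimum UMI, depth, batch, letter, scaling, pseudocount and highest cell. Scripts ran in Python 3.11.15 with pandas 2.3.3, NumPy 2.4.6, SciPy 1.17.1 and matplotlib 3.10.9, and were tested on simulated data. Sequences and positions came from RefSeq tables of GRCm38.p6.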

Additional observations from a re-analysis of the deposited data

How the results depend on the processing

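Of the 120 alternative values computed, no call changed direction, and only the correlation of Zfp608 and Ptprt, near 0 at -0.0078, changed sign, to 0.047 in batch 2. Correlations below a size of 0.2 were not counted as having a direction. Of all alternatives, 99 stayed within the interval or range set for the reported value and 21 moved. The rise in the share of cells moved for Pdzrn3 to 65.5 points when thinned to 5000 UMIs and to 85.9 points in letter B, for Ptprt to 68.6 points in letter B, and for Gm49685 to 43.4 points at a minimum of 2 UMIs, 41.9 points when thinned and 50 points in letter B. The log2 ratio moved for Zfp608 to 6.08 with a pseudocount of 1 CPM and 6.54 in letter B, for Pdzrn3 to 5.43 in letter B, and for Gm49685 to 5.91 with a pseudocount of 1 CPM and 4.19 when summed with Cdh12. Early cells with at least 2 members were 0.498% at a minimum of 2 UMIs and 1.03% when thinned, against 5.97% as reported, and 8.75% in batch 1 and 4.13% in batch 2. Spearman correlations across day 2.5 cells moved to 0.18 for Zfp608 and Gm49685 in G1 cells, to 0.22 for Pdzrn3 and Ptprt in batch 3, and to 0.30 and 0.53 for Ptprt and Gm49685 in batches 2 and 3. Against 2666 genes called higher and 2813 called lower, a minimum of 100 UMIs left 1461 and 1466 and a ratio of 2 left 1702 and 1623, and fewer genes can pass either rule by construction. The cause of the other moves was not tested. The squared CV beyond Poisson stayed within 1.5 times of its reported value in all 20 alternatives. Its full-depth values, the sum with Cdh12, batch 1 alone, the values without M cells and all within-batch values of classes were chosen after seeing the data, since thinning was already the reported setting for spread. No paired analysis was possible because each day was taken as 1 sample and replicate numbers only follow the order of the libraries. Of the 89 positive readings of a member at day 0.5, 55 were a single UMI.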
